A study of Homo sapiens with 9 samples.

Results

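The RASSF genes encode Ras association domain proteins, a family of scaffolds without enzyme activity that are often described as tumour suppressors. The genes RASSF1 to RASSF8 and RASSF10 were followed here, 9 of the 25886 gene symbols in a table of RNA sequencing counts, and were found by their symbols alone. All 9 were in the table, and 8 had enough counts to be tested. The counts came from 9 libraries of cells labelled HT29, an established human colorectal cancer line. Of these, 3 were Control, 3 were DNMT1 knockdown and 3 were DNMT3B knockdown libraries. The knockdowns were stable and made with lentiviruses, and all 3 groups carried the label of puromycin selection, which the protocol gives as 1 µg per ml for 3 passages. The sequences and number of the hairpins, and whether the cells were pools or clones, are details not given in the sources used here. DNMT1 copies methylation onto newly made DNA strands and DNMT3B places new methylation. The stated purpose was to learn which part of the transcriptome depends on each enzyme, because proteasome inhibitors lower both.

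RASSF1 to RASSF6 share a Ras association domain followed by a SARAH domain, a coiled helix through which they bind the kinases MST1 and MST2 at the head of the Hippo pathway. RASSF7, RASSF8 and RASSF10 carry the Ras association domain near the N-terminus and lack a SARAH domain. The family is best known in tumours for promoter methylation: the long isoform of RASSF1 is silenced in this way in many cancers, and RASSF2 in colorectal cancer.

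The libraries held 18772187 to 33666224 counts. Replicates of a group were distinct libraries, with chi-square values per degree of freedom of 1.80 to 3.70 between any 2 of them. No label says that they were separate cultures, and the spread that the p-values measure may therefore be technical. The targeted mRNAs were at 55.0% of Control (DNMT1) and 49.9% of Control (DNMT3B) in their own knockdowns. DNMT1 mRNA was also called higher with DNMT3B knockdown, at 488 ± 1.95 CPM (counts scaled to library size, with TMM factors) against 458 ± 10.3 CPM in Control. That call was lost without Control replicate 1 (edgeR adjusted p = 0.0804). DNMT3B mRNA was not called with DNMT1 knockdown (64.2 ± 0.324 against 61.3 ± 1.17 CPM, edgeR adjusted p = 0.220). In bulk RNA, fewer cells of a type and less RNA per cell cannot be told apart. Of 12 colon epithelial markers, 6 were above 30 CPM in Control, among them CDX2 at 38.2 ± 1.13 CPM (SD, n = 3), and 5 were under 1 CPM. CDX1 and CEACAM5 had no count in Control, and VIL1, LGALS4 and CDH17 were at 0.905 ± 0.237, 0.295 ± 0.149 and 0.317 ± 0.0607 CPM, so a part of the labelled cell type's markers was near 0.

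Promoter sequences of 250 bases before a RefSeq transcript start (build GRCh38.p14) were found for 6 of the 9 genes, RASSF1 to RASSF6. A set of 3 is printed because these genes gave the rises with the smallest adjusted p in the comparisons that follow, and because the windows differ widely in CG dinucleotides, the sites that DNA methyltransferases act on. Capitals mark every CG, which reads the same on both strands. The RASSF2 window (chr20:4815148-4815397, minus strand) lies inside the gene and outside its annotated exons, 8498 bases into it from the 5′ end in GENCODE 29. The RASSF3 window (chr12:64610245-64610494, plus strand) also lies inside its gene and outside exons, and the RASSF6 window (chr4:73620632-73620881, minus strand) ends where the gene begins.
RASSF2: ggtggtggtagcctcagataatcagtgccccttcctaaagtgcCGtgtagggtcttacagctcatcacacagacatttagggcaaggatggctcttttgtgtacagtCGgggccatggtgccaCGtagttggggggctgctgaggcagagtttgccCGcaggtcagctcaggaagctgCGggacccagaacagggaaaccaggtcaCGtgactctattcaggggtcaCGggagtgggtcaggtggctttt
RASSF3: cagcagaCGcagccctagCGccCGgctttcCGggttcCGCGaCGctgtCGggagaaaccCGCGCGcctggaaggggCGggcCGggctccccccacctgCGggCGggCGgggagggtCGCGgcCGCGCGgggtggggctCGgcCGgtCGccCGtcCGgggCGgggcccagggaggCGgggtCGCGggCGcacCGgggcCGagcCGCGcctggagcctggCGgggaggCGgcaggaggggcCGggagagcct
RASSF6: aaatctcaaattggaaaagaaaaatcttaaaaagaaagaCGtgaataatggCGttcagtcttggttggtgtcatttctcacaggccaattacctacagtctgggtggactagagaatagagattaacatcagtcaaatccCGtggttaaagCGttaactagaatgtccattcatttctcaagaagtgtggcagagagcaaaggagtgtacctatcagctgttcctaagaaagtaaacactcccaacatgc
The RASSF3 window held 38 CG, a number that 3.28% of the 35116 RefSeq windows of this length reach. The RASSF2 window held 7 CG, which 58.9% of windows reach, and the RASSF6 window 4, which 70.7% reach. The only windows found for RASSF2 and RASSF3 are for starts inside these genes, so sequence at their 5′ ends was not examined. The median window held 11 CG, and 93.9% of windows held at least 1. A further RASSF6 window, for a start 195 bases into the gene, held 13 CG. The windows of RASSF1 and RASSF4 held 25 and 32 CG, and the 2 windows of RASSF5 held 23 and 10. The RASSF1 window is for a start 3530 bases into the gene and overlaps annotated exons. No window at the 5′ end of RASSF1 was found. These counts describe the letters only, since methylation was not analysed here.

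Per kilobase of exon, the scale on which genes can be compared, RASSF3 had the highest level in Control at 21.9 ± 0.769 CPM per kb (SD, n = 3). RASSF7 followed at 9.41 ± 0.421 and RASSF1 at 6.02 ± 0.201 CPM per kb. RASSF8 (2.50 ± 0.177 CPM per kb), RASSF2 (1.82 ± 0.118) and RASSF5 (1.30 ± 0.119) formed the middle of the order. RASSF6 at 0.310 ± 0.0402 and RASSF4 at 0.112 ± 0.0138 CPM per kb were low, and RASSF10 was close to no expression. In each of the 3 groups, each gene's 3 libraries lay above those of the next gene in that group's order. The lengths are unions of all GENCODE 29 exons, so a gene that uses few of its exons is placed too low.

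RASSF2 and RASSF8 changed places in this order. Per kilobase, the level of RASSF2 relative to RASSF8 was 0.724, 0.732 and 0.733 in the Control libraries. It was 1.29, 1.53 and 1.25 with DNMT1 knockdown and 1.75, 1.35 and 1.51 with DNMT3B knockdown, so every knockdown library lay above every Control library. The other members kept their rank. With DNMT1 knockdown the change of places rests on the exon lengths: in CPM, RASSF2 (15.7 to 17.5) and RASSF8 (15.1 to 16.6) overlapped. With DNMT3B knockdown RASSF2 (16.3 to 18.5 CPM) lay above RASSF8 (14.0 to 15.9 CPM) without the lengths too.

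**Figure D1:**
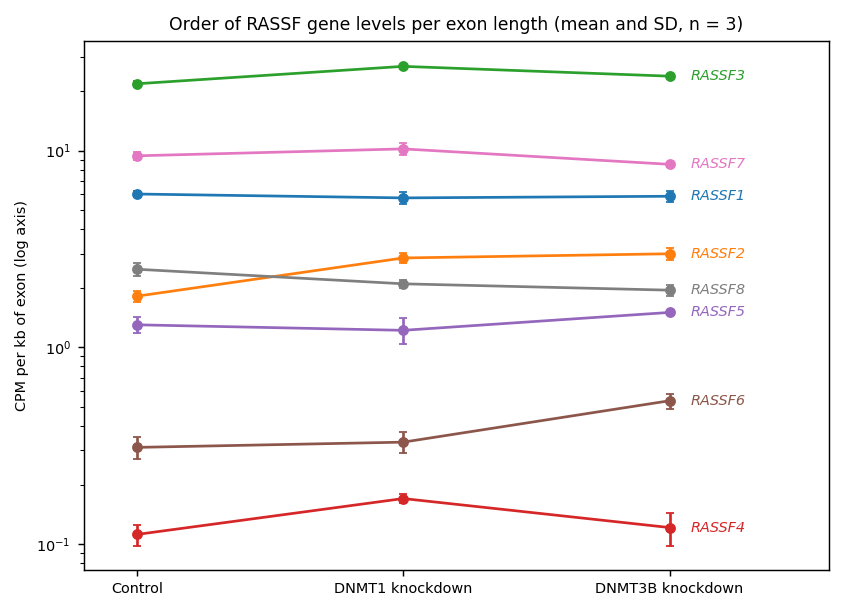
Mean level of 8 RASSF genes in CPM per kb of exon (log axis) in Control, DNMT1 knockdown and DNMT3B knockdown cells, with SD over 3 libraries; lines join the groups of 1 gene. RASSF3 is highest in every group, and the lines of RASSF2 and RASSF8 cross, from 1.82 and 2.50 CPM per kb in Control to 2.85 and 2.10 with DNMT1 knockdown.

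With DNMT1 knockdown RASSF2, RASSF3 and RASSF4 rose and RASSF8 fell, at an edgeR adjusted p below 0.05 over all 16660 genes tested. This is 4 of 8 tested members, in a comparison in which 41.8% of all genes were called (21% higher and 20.8% lower), and 4 of 8 had libraries that did not overlap Control, against 49.4% of all genes (24.8% higher and 24.6% lower). Both shares are near those of all genes. The median log2 fold change of the 8 was 0.10, against -0.0025 over all genes. With the sign left out, the median over all genes was 0.147. With DNMT3B knockdown RASSF2, RASSF3, RASSF5 and RASSF6 rose and RASSF7 and RASSF8 fell, 6 of 8 in a comparison with 47.7% of genes called (23.1% higher and 24.6% lower). Libraries of 6 of 8 did not overlap Control, against 54.1% of all genes (26.6% higher and 27.6% lower). There the median of the 8 was 0.12, against 0.0023 over all genes and 0.170 over all genes with the sign left out. Both knockdowns were compared with the same 3 Control libraries, so their fold changes are not independent. Between the knockdowns 4 of 8 members differed, where 45.2% of all genes did (24.3% higher and 20.9% lower with DNMT1 knockdown), and 5 of 8 had libraries that did not overlap, against 52.2% of all genes (27.7% higher and 24.5% lower).

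**Figure D2:**
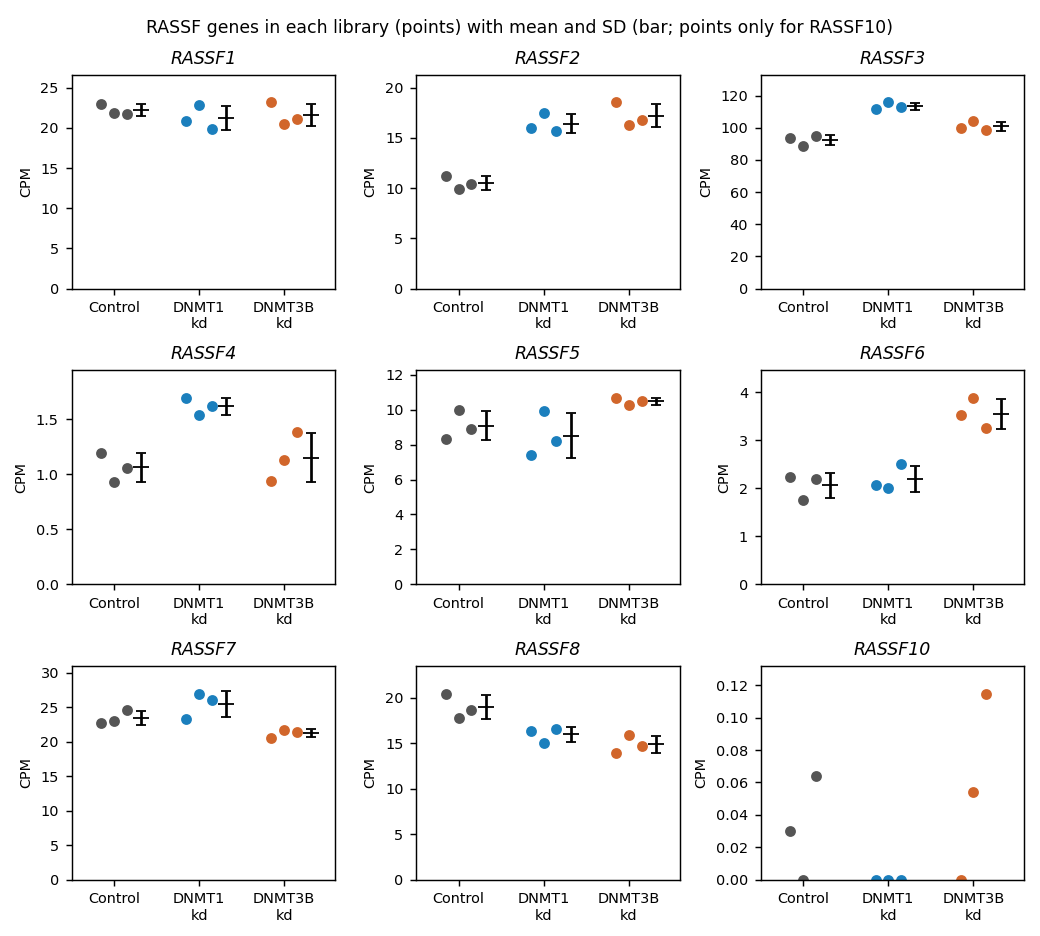
Level of each RASSF gene in CPM (axes start at 0) in each of the 9 libraries, with the mean and SD of 3 libraries beside the points, except for RASSF10. RASSF2 lies between 9.87 and 11.2 CPM in Control and between 15.7 and 18.5 CPM in all 6 knockdown libraries, while RASSF6 is higher only in the DNMT3B knockdown libraries, at 3.26 to 3.88 CPM.

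RASSF1 (chromosome 3, 50329782 to 50340980, GRCh38), which binds Ras and MST kinases and stabilises microtubules, did not pass the test in any comparison. Its levels were 23.0, 21.8 and 21.7 CPM in Control, 20.9, 22.8 and 19.9 CPM with DNMT1 knockdown and 23.2, 20.5 and 21.1 CPM with DNMT3B knockdown. The 3 groups overlapped. DNMT1 knockdown left it at 95.4% of Control with a 95% interval from the edgeR standard error of 87.6 to 104% (adjusted p = 0.390), and DNMT3B knockdown at 97.6% with an interval of 89.6 to 106% (adjusted p = 0.659). The gene has 8 annotated transcript starts, and counts per gene do not separate the long isoform from the short one. RASSF1-AS1, an antisense RNA inside it, stood at 1.36 ± 0.179, 1.04 ± 0.0717 and 1.20 ± 0.347 CPM in Control, DNMT1 and DNMT3B knockdown. Since no source used here states whether strand was used in counting, reads of the 2 genes cannot be told apart where they overlap.

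RASSF2 (chromosome 20, 4780023 to 4823645), a Ras-binding protein that stabilises MST kinases, gave the smallest adjusted p of the family in both knockdowns. It stood at 11.2, 9.87 and 10.4 CPM in Control, at 16.0, 17.5 and 15.7 CPM with DNMT1 knockdown and at 18.5, 16.3 and 16.8 CPM with DNMT3B knockdown. All 6 knockdown libraries were above the 3 Control libraries, and the knockdown groups overlapped each other. It was 1.56-fold higher with DNMT1 knockdown (log2 fold change 0.64 ± 0.072, SE, edgeR adjusted p = 1.19e-08) and 1.64-fold higher with DNMT3B knockdown (0.72 ± 0.072, adjusted p = 8.65e-10). Between the knockdowns it did not pass the test: the DNMT1 knockdown level was 94.9% of the DNMT3B knockdown level, with an interval of 86.1 to 105% (adjusted p = 0.399).

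RASSF3 (chromosome 12, 64507001 to 64697567), reported to promote turnover of MDM2 and so to steady p53, rose in both knockdowns and more with that of DNMT1. Control libraries held 93.9, 88.7 and 94.7 CPM, DNMT1 knockdown libraries 112, 116 and 113 CPM, and DNMT3B knockdown libraries 99.96, 104 and 98.9 CPM. None of the 3 groups overlapped. The rise was 1.23-fold with DNMT1 knockdown (log2 fold change 0.29 ± 0.037, adjusted p = 9.76e-08) and 1.09-fold with DNMT3B knockdown (0.13 ± 0.037, adjusted p = 0.00576). The DNMT1 knockdown level was 1.12-fold that of the DNMT3B knockdown (0.17 ± 0.037, adjusted p = 0.000416).

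RASSF4 (chromosome 10, 44959407 to 44995891), a little-studied Ras-binding member, had only 21 to 41 counts per library. It was at 1.19, 0.931 and 1.06 CPM in Control, at 1.69, 1.53 and 1.62 CPM with DNMT1 knockdown and at 0.941, 1.13 and 1.38 CPM with DNMT3B knockdown. DNMT1 knockdown libraries stood above all others, while DNMT3B knockdown libraries overlapped Control. The log2 fold change was 0.59 ± 0.19 with DNMT1 knockdown (adjusted p = 0.0129), a call lost without Control replicate 2 (adjusted p = 0.0512) and with DESeq2 (0.0723). With DNMT3B knockdown it was 0.11 ± 0.21 (adjusted p = 0.698), and the difference between the knockdowns did not pass the test (adjusted p = 0.0515). DEPP1, a gene on the opposite strand within RASSF4, also rose with DNMT1 knockdown, from 0.960 ± 0.198 to 1.42 ± 0.488 CPM (adjusted p = 0.0441), and reads of the pair cannot be told apart without strand. The DEPP1 call was lost in 5 of 17 alternatives, among them leaving out DNMT1 knockdown replicate 1 (log2 fold change 0.24).

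RASSF5 (chromosome 1, 206507530 to 206589448) encodes NORE1A and RAPL, which link Ras and Rap1 to MST kinases and to integrin adhesion in lymphocytes. It stood at 8.35, 9.98 and 8.92 CPM in Control, at 7.43, 9.93 and 8.19 CPM with DNMT1 knockdown and at 10.7, 10.3 and 10.5 CPM with DNMT3B knockdown. DNMT3B knockdown libraries lay above the other 6, and the other groups overlapped. The rise with DNMT3B knockdown was 1.16-fold (log2 fold change 0.22 ± 0.088, adjusted p = 0.0415), and with DNMT1 knockdown the value was -0.09 ± 0.092 (adjusted p = 0.472). The knockdowns differed by -0.31 ± 0.094 (adjusted p = 0.00794), DNMT1 knockdown being lower, a call lost without DNMT1 knockdown replicate 1 (-0.22, adjusted p = 0.0787). The rise with DNMT3B knockdown was lost in 5 of 17 alternatives (adjusted p 0.0876 to 0.186), which were DESeq2 and the removal of Control replicate 1 or 3 or DNMT3B knockdown replicate 1 or 3. Summed leukocyte markers were 18.1 to 19.3 CPM in Control, 18.5 to 19.7 CPM with DNMT1 knockdown and 31.2 to 36.3 CPM with DNMT3B knockdown, nearly all from CD68, a lysosomal gene. Of the 7 leukocyte markers, 6 were under 1 CPM in every group, and PTPRC, the defining marker, was at 0.101 ± 0.0435 CPM in Control and 0.148 ± 0.0651 CPM with DNMT3B knockdown. EIF2D, a translation factor gene that overlaps RASSF5 on the opposite strand, was at 51.8 ± 2.12 CPM in Control and 53.4 ± 0.289 CPM with DNMT3B knockdown.

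RASSF6 (chromosome 4, 73571550 to 73620631), which binds MST kinases and the apoptosis protein MOAP1, rose with DNMT3B knockdown. Its levels were 2.24, 1.75 and 2.18 CPM in Control and 2.06, 2.00 and 2.49 CPM with DNMT1 knockdown, which overlapped. With DNMT3B knockdown they were 3.52, 3.88 and 3.26 CPM, above all 6 other libraries. The rise was 1.69-fold (log2 fold change 0.76 ± 0.14, adjusted p = 3.82e-05). With DNMT1 knockdown the value was 0.08 ± 0.16, an interval of 84.6 to 131% of Control (adjusted p = 0.726). The test of the difference between the knockdowns gave -0.68 ± 0.15 (adjusted p = 0.000282), or 62.2% of the DNMT3B knockdown level in the DNMT1 knockdown.

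Summed stromal markers differed between all 3 groups: they were 21.4 to 25.1 CPM in Control, 25.5 to 29.8 CPM with DNMT1 knockdown and 33.6 to 36.2 CPM with DNMT3B knockdown. RASSF6 differed only with DNMT3B knockdown, and its DNMT1 knockdown libraries overlapped Control. Of the 7 stromal markers 5 were under 1 CPM in every group, with DCN and COL1A2 at 0 counts throughout. Nearly all of the sum came from COL1A1 and ACTA2. In Control, DNMT1 and DNMT3B knockdown, COL1A1 was at 17.6, 21.5 and 27.5 CPM and ACTA2 at 5.27, 5.69 and 7.26 CPM. Endothelial markers summed to 2.89 to 3.39, 2.23 to 2.53 and 4.40 to 5.12 CPM in the same order, with 4 of 5 under 1 CPM in every group. The other was VWF, at 1.20, 1.16 and 2.6 CPM. The part of these marker genes in the RASSF5 and RASSF6 results was not tested.

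RASSF7 (chromosome 11, 560404 to 564021), needed for mitotic spindle organisation and an inhibitor of the stress kinase MAP2K7, differed between the knockdowns. Control libraries held 22.7, 23.0 and 24.7 CPM, DNMT1 knockdown libraries 23.4, 27.0 and 26.0 CPM, and DNMT3B knockdown libraries 20.5, 21.8 and 21.4 CPM. DNMT3B knockdown libraries were the lowest, and the other groups overlapped. The DNMT1 knockdown level was 1.20-fold that of the DNMT3B knockdown (log2 fold change 0.26 ± 0.061, adjusted p = 0.000691). Against Control, the fall with DNMT3B knockdown was small (-0.15 ± 0.060, adjusted p = 0.0442), and 9 of 17 alternatives lost it (adjusted p 0.0533 to 0.211). With DNMT1 knockdown the value of 0.12 ± 0.057 did not pass the test (adjusted p = 0.104), but did without DNMT1 knockdown replicate 1 (0.18, adjusted p = 0.0187). LMNTD2 overlaps the gene on the opposite strand and was at 5.40 ± 0.400, 5.36 ± 0.685 and 4.90 ± 0.219 CPM in Control, DNMT1 and DNMT3B knockdown.

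RASSF8 (chromosome 12, 25959029 to 26079892), found at cell junctions where it binds the p53 partner TP53BP2, was the one member that fell in both knockdowns. It stood at 20.5, 17.8 and 18.7 CPM in Control, at 16.4, 15.1 and 16.6 CPM with DNMT1 knockdown and at 14.0, 15.9 and 14.7 CPM with DNMT3B knockdown. All knockdown libraries were below all Control libraries, and the knockdown groups overlapped. Its level was 84.1% of Control with DNMT1 knockdown (log2 fold change -0.25 ± 0.066, adjusted p = 0.00262) and 77.6% with DNMT3B knockdown (-0.36 ± 0.067, adjusted p = 3.82e-05). Between the knockdowns the difference was 0.12 ± 0.072 (adjusted p = 0.201), with the DNMT1 knockdown level at 97.8 to 120% of the DNMT3B knockdown level by its interval. RASSF8-AS1, an antisense RNA at its start, had under 1 CPM in every library.

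RASSF10 (chromosome 11, 13009577 to 13012106), an N-terminal member often methylated in tumours, had 1, 0 and 2 counts in Control, none with DNMT1 knockdown and 0, 1 and 3 counts with DNMT3B knockdown. It was not tested. The limit that 0 counts allow, 3 counts, came to 0.124 to 0.128 CPM in the DNMT1 knockdown libraries, an upper limit for a gene seen at 0. RASSF9, a related gene that is not among the 9, had 3 counts over all libraries.

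**Figure D3:**
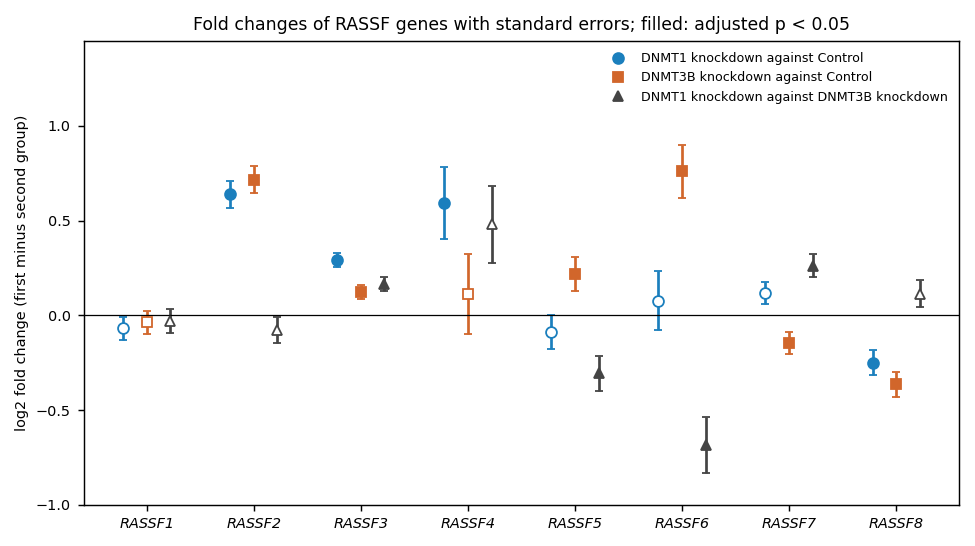
Log2 fold change of the 8 tested RASSF genes in 3 comparisons (first minus second group), with the standard error of the edgeR fit over 9 libraries; filled symbols passed an adjusted p of 0.05. RASSF2 is near 0.64 and 0.72 in the knockdowns, RASSF8 is below 0 in both, and the largest difference between the knockdowns is that of RASSF6 (-0.68).

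Of 23 tested genes that overlap or lie next to the 9 members, 4 rose and 5 fell with DNMT1 knockdown, and 2 rose and 3 fell with DNMT3B knockdown. The 9 of 23 called with DNMT1 knockdown are near the 41.8% called among all genes, and the 5 of 23 called with DNMT3B knockdown are fewer than the 47.7% called among all genes. Beside RASSF2, the prion protein gene PRNP lies 78433 bases away and was at 116, 114 and 115 CPM in Control, DNMT1 and DNMT3B knockdown, with no call. SLC23A2, a vitamin C transporter gene 28711 bases on the other side, fell with DNMT1 knockdown from 114 ± 1.20 to 101 ± 2.48 CPM (adjusted p = 0.000144). RASSF6 lies 119875 bases from CXCL8, a neutrophil chemokine gene that fell with DNMT1 knockdown (-0.93 ± 0.22, adjusted p = 0.000779).

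RASSF8 has BHLHE41, a circadian repressor gene, 40134 bases away, and this gene fell with DNMT1 knockdown from 9.63 ± 0.420 to 6.01 ± 1.05 CPM (adjusted p = 1.61e-06). With DNMT3B knockdown BHLHE41 was at 9.38 ± 0.988 CPM, while RASSF8 itself was lower. TUSC2, a mitochondrial protein gene 1531 bases from RASSF1, fell with DNMT3B knockdown from 36.3 ± 0.842 to 27.4 ± 2.16 CPM (adjusted p = 1.21e-07). ZNF22 and ZNF32, zinc finger genes 4584 and 1310551 bases from RASSF4 on either side, were called against Control once each. ZNF22 rose with DNMT1 knockdown (0.20 ± 0.063) and ZNF32 fell with DNMT3B knockdown (-0.41 ± 0.10). In the direct comparison ZNF22 was also called higher with DNMT1 than with DNMT3B knockdown (18.9 ± 0.476 against 16.0 ± 0.964 CPM). TEAD1, a Hippo transcription factor gene 65094 bases from the near-silent RASSF10, rose in both knockdowns (0.59 ± 0.032 and 0.24 ± 0.033). On the other side of RASSF10, the clock gene ARNTL rose with DNMT3B knockdown (0.22 ± 0.053, adjusted p = 0.000721). Calls among the neighbours with DNMT1 knockdown also included falls of PHRF1 next to RASSF7 (-0.13 ± 0.038, adjusted p = 0.00642) and of ANKRD17 next to RASSF6 (-0.08 ± 0.032, adjusted p = 0.0499). PHRF1 lost its call without DNMT1 knockdown replicate 1 (adjusted p = 0.0661), and ANKRD17 lost it in 10 of 17 alternatives.

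**Figure D4:**
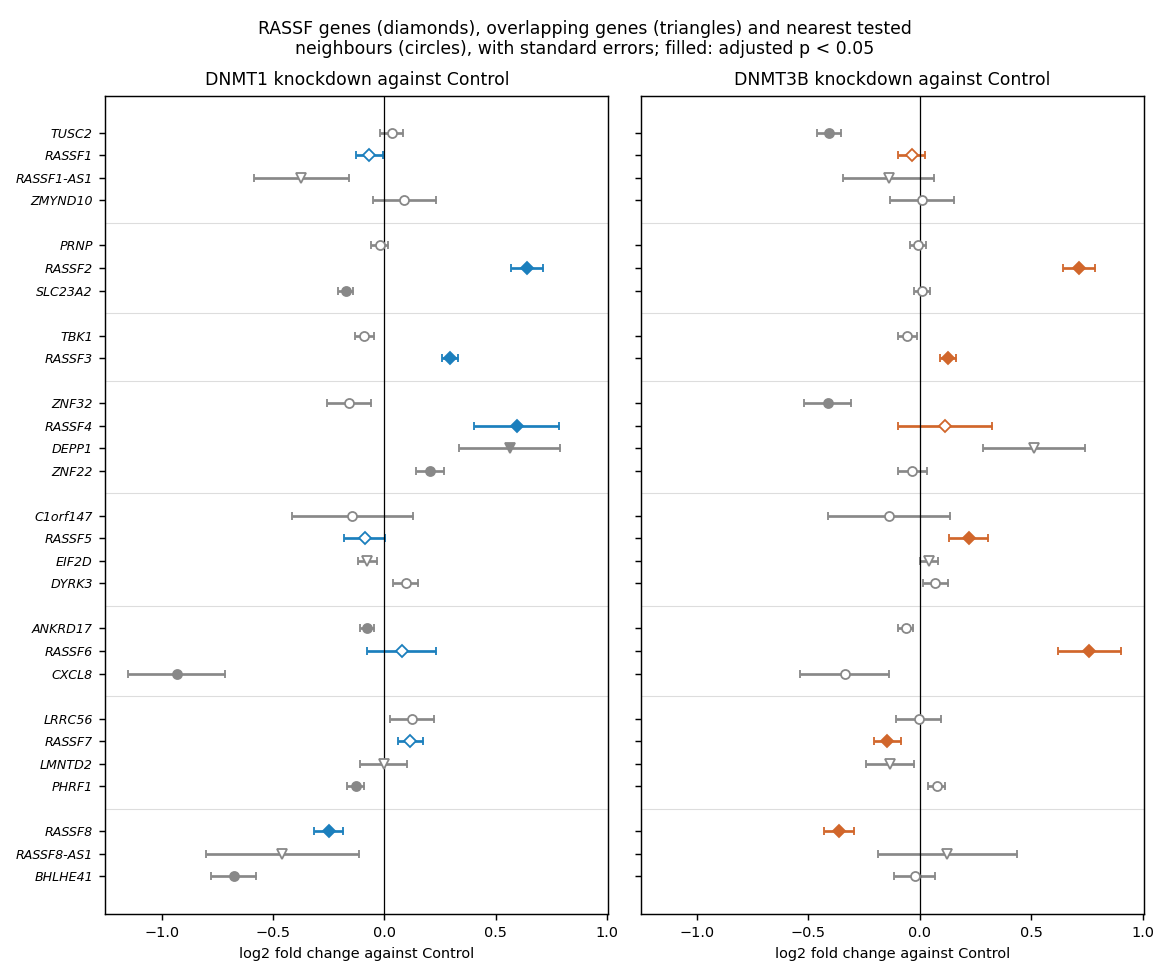
Log2 fold change against Control, with standard errors, of the 8 tested RASSF genes (diamonds), the genes overlapping them (triangles) and nearest tested neighbours (circles), in 2 panels for the 2 knockdowns; filled symbols passed an adjusted p of 0.05. RASSF2 stands to the right of PRNP and SLC23A2 in both panels, at 0.64 and 0.72.

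The proteins that work with the family are given from 3 lists. In the Hippo list (MST kinases, their partners LATS, MOB1, SAV1, NF2 and WWC1, the coactivators YAP1 and WWTR1, and the TEAD factors), 6 of 15 genes rose and 4 fell with DNMT1 knockdown, and 7 rose and 4 fell with DNMT3B knockdown. That is 66.7% and 73.3% of the list called, against 41.8% and 47.7% of all genes. The 15 genes had means of 45.0 to 264 CPM in Control, and no share was taken over genes of like level. Median log2 fold changes of this list were 0.03 and 0.07. TEAD1 went from 209 ± 4.60 CPM to 315 ± 4.72 CPM with DNMT1 knockdown, and WWC1, which activates LATS kinases, from 78.1 ± 1.09 to 118 ± 2.58 CPM (adjusted p = 1.25e-14). WWC1 also rose with DNMT3B knockdown, to 102 ± 3.53 CPM. YAP1 rose with DNMT1 knockdown from 264 ± 4.03 to 294 ± 4.43 CPM and fell with DNMT3B knockdown to 210 ± 4.15 CPM (adjusted p = 6.01e-10). The kinases that bind SARAH domains differed less: STK3 (MST2) fell by 0.13 ± 0.047 on the log2 scale with DNMT1 knockdown (adjusted p = 0.0259), and STK4 (MST1) rose by 0.11 ± 0.037 with DNMT3B knockdown (adjusted p = 0.0155). For STK3, DNMT1 knockdown replicate 1 (49.9 CPM) lay within the Control range of 49.4 to 50.9 CPM. Neither MST kinase was among the genes followed in the alternatives. LATS1 and LATS2, chosen after their values were seen with the 2 MST kinases, fell with DNMT1 knockdown (-0.13 ± 0.040 and -0.26 ± 0.044) and rose with DNMT3B knockdown (0.11 ± 0.039 and 0.30 ± 0.042). LATS1 lost its DNMT1 knockdown call without DNMT1 knockdown replicate 2 (adjusted p = 0.0617), and its DNMT3B knockdown call without Control replicate 3 (0.0535), without DNMT3B knockdown replicate 3 (0.103) and with no low-count filter (0.0613). For LATS2 the difference between the knockdowns was -0.55 ± 0.044 (adjusted p = 6.56e-12).

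In the list of Ras and Rap GTPases, the proteins that Ras association domains bind, 4 of 11 rose and 3 fell with DNMT1 knockdown, and 2 rose and 3 fell with DNMT3B knockdown (medians 0.06 and -0.03). That is 63.6% of the list called with DNMT1 knockdown, against 41.8% of all genes, and 45.5% with DNMT3B knockdown, near the 47.7% of all genes. Means of this list were 17.8 to 160 CPM in Control, and here too no share was taken over genes of like level. RRAS, a Ras relative that activates integrins, rose with DNMT1 knockdown from 19.4 ± 0.361 to 28.1 ± 1.48 CPM (adjusted p = 2.28e-09), and stood at 19.0 ± 0.726 CPM with DNMT3B knockdown, where it was not called. MRAS rose in both knockdowns, from 17.8 ± 0.835 CPM to 22.5 ± 0.950 CPM with that of DNMT1 and 21.6 ± 0.877 CPM with that of DNMT3B. RAP2C fell with DNMT3B knockdown from 46.4 ± 2.00 to 26.6 ± 0.396 CPM (adjusted p = 7.96e-15), and with DNMT1 knockdown to 42.6 ± 1.53 CPM (adjusted p = 0.0266), a call lost with DESeq2 (0.0689) and when Control replicate 1 (0.112), DNMT1 knockdown replicate 2 (0.156) or Control replicate 3 (0.119) was left out. HRAS fell in both, from 40.7 ± 2.14 CPM to 34.0 ± 0.954 CPM with DNMT1 knockdown and 32.5 ± 2.04 CPM with DNMT3B knockdown.

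Of 10 known protein partners of RASSF members, 3 rose and 2 fell with DNMT1 knockdown and 6 rose and 1 fell with DNMT3B knockdown (medians 0.08 and 0.14). With DNMT1 knockdown 5 of 10 were called, near the 41.8% of all genes, and with DNMT3B knockdown 7 of 10, against 47.7% of all genes. The 10 genes had means of 17.4 to 333 CPM in Control, and again no share was taken over genes of like level. MDM2, the ubiquitin ligase of p53 and a partner of several members, fell with DNMT1 knockdown (log2 fold change -0.43 ± 0.033) and rose with DNMT3B knockdown (0.42 ± 0.033, adjusted p = 3.39e-12). PPP1R13B, which like TP53BP2 belongs to the ASPP proteins, rose with DNMT1 knockdown from 24.3 ± 1.63 to 28.4 ± 1.37 CPM (adjusted p = 0.0018) and with DNMT3B knockdown to 30.3 ± 2.03 CPM (adjusted p = 1.89e-05). CNKSR1, a scaffold that binds RASSF1, rose with DNMT3B knockdown from 38.9 ± 1.40 to 49.0 ± 2.89 CPM (adjusted p = 1.26e-06).

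**Figure D5:**
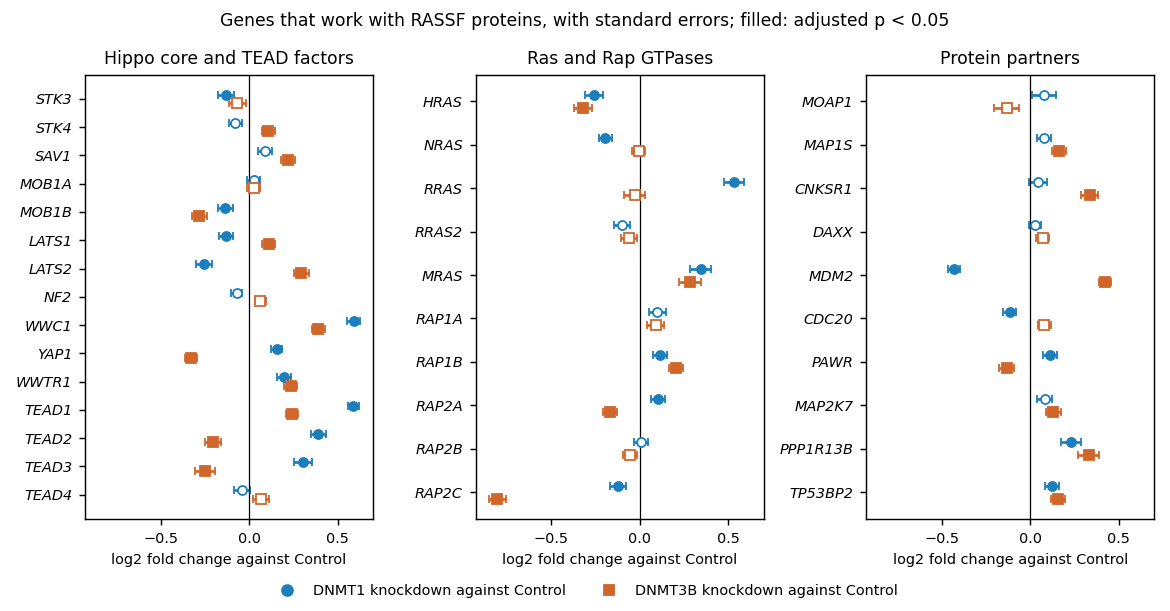
Log2 fold change against Control, with standard errors, of 15 Hippo and TEAD genes, 10 of the Ras and Rap GTPases and 10 protein partners of RASSF members in the DNMT1 (circles) and DNMT3B (squares) knockdown; filled symbols passed an adjusted p of 0.05. MDM2, LATS2 and YAP1 lie on opposite sides of 0 in the 2 knockdowns, and RAP2C reaches -0.80 with DNMT3B knockdown.

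For the 3 members with the largest fold change against Control and at least 2 CPM, the genes with the most similar profile over the 9 libraries were sought among 13485 other genes, by the root mean square difference of log2 CPM after each gene was centred on its Control mean. RASSF2 was most like CISH (difference 0.064), TRIM5 (0.076) and the noncoding RNA CCAT1 (0.081), a transcript raised in colorectal tumours. CISH, a cytokine signalling inhibitor, was at log2 fold changes of 0.62 and 0.65 in the DNMT1 and DNMT3B knockdown, and TRIM5, an antiviral factor, at 0.60 and 0.68. RASSF6 was close to MB21D2 (0.13) and the transglutaminase gene TGM2 (0.14), which were at 0.78 and 0.79 with DNMT3B knockdown. RASSF8 was most like the dehydrogenase genes IDH1 (0.048) and HSD17B11 (0.048) and the tRNA synthetase gene IARS2 (0.051), at -0.35, -0.32 and -0.35 with DNMT3B knockdown. All 9 libraries are shared by the genes compared.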

How the data were processed

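Libraries were made from rRNA-depleted RNA, per the labels' protocols. The authors deposited raw read counts by gene symbol in a single table. STAR, featureCounts and DESeq2 with GRCh38 (hg38) are named in the submitters' processing notes. Versions, settings, annotation and the use of strand were not given in the sources used here. Groups came from the sample titles.

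The counts were fitted with edgeR 4.0.16 (R 4.3.3). The 16660 of 25886 genes that passed filterByExpr by group entered 1 quasi-likelihood fit of 9 libraries with TMM scaling, and Benjamini-Hochberg adjustment ran over all of them. An adjusted p with no tool beside it comes from that fit, as does the SE printed after each log2 fold change. Total counts (M, 1e6) were 26.9 to 33.7 in Control, 23.4 to 24.2 with DNMT1 knockdown and 18.8 to 26.0 with DNMT3B knockdown. Floors of 3 counts cover counting error only. Alternatives were DESeq2 1.42.0, limma-voom (limma 3.58.1), DESeq2 size factors, no TMM, no filter on low counts, a minimum of 1 CPM in 3 libraries, only the groups compared, a replicate block and leaving out each library. The script was tested on simulated data.

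Positions, neighbours and exon lengths are from GENCODE 29 (GRCh38). Named genes were the members, the 2 genes of each partner list with the smallest adjusted p in each knockdown, neighbours, and the 3 genes most like each of 3 members. Some genes that meet this rule are not reported here or drawn in the figures, but are in the counts. The MST kinases and LATS genes were named outside this rule. The members and lists were chosen with earlier results of these data known.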

Additional observations from a re-analysis of the deposited data

Results flagged for a closer look

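The direct comparison of the knockdowns called 4 of the 8 tested RASSF members, near the 45.2% called among all genes. RASSF6 was lower with DNMT1 than with DNMT3B knockdown by a log2 fold change of -0.68, and RASSF5 by -0.31. RASSF7 was higher with DNMT1 than with DNMT3B knockdown by 0.26, and RASSF3 by 0.17. In RASSF5, RASSF6 and RASSF7 1 knockdown passed the test against Control and the other did not. The calls of RASSF5 and RASSF7 with DNMT3B knockdown against Control were lost in 5 and 9 of 17 alternatives. The direct RASSF5 call was lost in 1 of 17. RASSF3 rose in both, by 0.29 with DNMT1 and by 0.13 with DNMT3B knockdown.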

How the results depend on the processing

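Over 17 alternatives per result, RASSF2, RASSF3 and RASSF8 in both knockdowns and RASSF6 in the DNMT3B knockdown kept their direction and their call. Of the 6 member results whose call changed, those of RASSF7 and RASSF5 with DNMT3B knockdown changed most often, in 9 and 5 alternatives. Members called lower with DNMT3B knockdown numbered 1 in place of 2 with DESeq2, with no TMM and with at least 1 CPM in 3 libraries, and 1 to 2 when a library was left out. In the direct comparison they were 1 to 2 when a library was left out. Members called higher then numbered 2 to 4 with DNMT1 knockdown, 3 to 4 with DNMT3B knockdown and 2 to 3 in the direct comparison. Sign changes came only from leaving out a library and only in results that had not been called. They were RASSF6 with DNMT1 knockdown (-0.027 to 0.15), RASSF5 with DNMT1 knockdown (-0.21 to 0.0056), RASSF4 with DNMT3B knockdown (-0.060 to 0.25) and RASSF1 between the knockdowns (-0.087 to 0.023). RASSF4 passed between the knockdowns with at least 1 CPM in 3 libraries (adjusted p = 0.0464) and without DNMT3B knockdown replicate 3 (0.0272).

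Libraries with the same replicate number in different groups did not deviate together (correlations of -0.094 to 0.086 over genes, none of 9 pairs above 0.1), so no pairing by number was seen. The correlations cover all tested genes, those with low counts included, and a shared batch was not tested. A replicate block gave 6796, 7789 and 7379 called genes in place of 6956, 7949 and 7534 and changed no member's call. At 21 to 41 counts per library, depth limits RASSF4 most among the tested members, and RASSF10 was too low to test.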
